A study of Mus musculus with 4 samples.

Results

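Matrix metalloproteinases (MMPs), the membrane-bound ADAM proteases, the secreted ADAMTS proteases and the tissue inhibitors of metalloproteinases (TIMPs) were examined in cultures of the mouse cell line 3T3-L1 exposed to the antipsychotic risperidone. The genes were chosen by symbol alone, as every gene of the deposited table whose symbol begins with Mmp, Adam and a number, or Adamts, together with Timp1 to Timp4. This gave 58 of the 16051 genes listed, made up of 18 MMP, 4 TIMP, 16 ADAM, 16 ADAMTS and 4 ADAMTS-like (ADAMTSL) genes. Of these, 26 had a mean of at least 1 FPKM (fragments scaled to transcript length and to the library's total) over the 4 libraries and were tested, and 32 lay below it. The tested genes were 7 MMP, 2 TIMP, 7 ADAM, 8 ADAMTS and 2 ADAMTSL genes.

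The study asked how risperidone acts on lipid storage in 3T3-L1 cells, a mouse fibroblast line that can form adipocytes in culture. All cells were 3T3-L1 cells (strain label NIH SWISS) that had been differentiated with isobutylmethylxanthine, dexamethasone and insulin. They then received 100 μM risperidone for 48 h or the vehicle dimethyl sulfoxide (DMSO), called control here, and mRNA was sequenced as 2 libraries per treatment. Each library held RNA pooled from 3 cultures, so p-values measure only the spread between these pools, which may be technical. In the sample labels the controls appear as untreated and the tissue as embryo, and the extraction text speaks of retinas. For the sequenced libraries, however, the study's methods describe cultured 3T3-L1 cells given DMSO or risperidone.

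Metalloproteinases of these families hold a zinc ion in their active site and are made as inactive pro-enzymes. MMPs cut collagens and other matrix proteins, ADAMs release the outer part of membrane proteins from the cell surface, a process called shedding, and ADAMTS proteases process procollagens and cut proteoglycans. TIMPs bind the active site and block it. Fat cells that enlarge must remodel the collagen around them, and the membrane-bound protease MMP14 is known to be needed for normal fat tissue growth.

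The libraries held between 15883712 and 16374119 estimated counts, and a count of 0 at this depth allows up to 3 counts, or 0.183 to 0.189 CPM, counts scaled to the library's total (counting error only). Among 10 adipocyte markers, 4 reached a mean of 1 FPKM (Lpl, Fabp4, Pparg and Cd36), and Adipoq, the gene of adiponectin, did not exceed 0.06 FPKM, nor Plin1, the gene of the lipid droplet coat protein perilipin, 0.51 FPKM, in any library. Cfd, Lep, Retn and Cidec lay at 0.39 FPKM or less, so the defining markers of mature adipocytes were at or near 0. The summed level of the 10 markers was 378 and 432 FPKM in control and 266 and 277 FPKM with risperidone. Fabp4, a fatty acid binding protein gene, stood at 130 and 169 against 59.5 and 71.2 FPKM. Lpl stood at 234 and 250 against 192 and 191 FPKM. Pparg (12.51 and 11.41 against 12.78 and 12.47 FPKM) and Cd36 (1.21 and 1.14 against 1.04 and 1.66) overlapped between treatments, so the expressed markers did not all fall. Markers of preadipocytes and fibroblasts summed to 484 and 474 FPKM in control and to 895 and 861 FPKM with risperidone, but not all moved alike. Col1a1 (380 and 368 against 715 and 674 FPKM), Thy1 (35.8 and 36.7 against 70.4 and 70.4) and Dlk1 were higher, while Pdgfrb (21.8 and 20.2 against 13.1 and 14.6 FPKM) and Pdgfra (13.5 and 13.3 against 11.9 and 12.6) were lower in both risperidone libraries. In bulk RNA, fewer cells of a type and less RNA per cell cannot be told apart, and the part of cell makeup in the results below was not tested. Kidney markers summed to 226 FPKM in risperidone replicate 2, where 13 of 18 reached 1 FPKM, against 2.15 to 3.47 FPKM and 1 of 18 in each of the other libraries. Results that rest on that library are given with and without it. Retina markers summed to 1.28 FPKM or less, with Gnat1, Nrl, Rcvrn and Rpe65 at 0 in every library. Macrophage and neutrophil markers summed to 25.5 and 31.9 FPKM in control and to 19.5 and 19.8 FPKM with risperidone. S100a8 (9.99 and 13.62 against 2.84 and 3.06 FPKM) and Cd14 (12.65 and 14.18 against 9.97 and 9.67) were lower. Cd68 was higher (2.64 and 3.50 against 6.34 and 6.70 FPKM). Ptprc, Csf1r and Itgam stayed at 0.09 FPKM or less, and Adgre1 and S100a9 were at 0 in every library.

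The site that binds the zinc ion is shared by most of the proteases. In the coding sequence it spans 11 codons, or 33 bases, and holds 3 histidine codons, 1 glutamate codon and a glycine or asparagine codon at fixed places. A search of the coding sequences (GENCODE M21, GRCm38) found it in 42 of the 58 genes and in 21 of the 26 tested. Timp1 and Timp2 lacked it, as did the non-catalytic relatives Adamtsl4 and Adamtsl5 and the ADAM-family adhesion protein gene Adam23. A gene without these letters can still encode a protease, as Adamts8, not found by the search, is known to. The sites of the proteases on which the results below turn are given 5′ to 3′ on the coding strand, with the codons for histidine, glutamate and glycine or asparagine in capitals.
Mmp14 (chr14:54437627-54437659, plus strand): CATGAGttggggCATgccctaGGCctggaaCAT
Mmp24 (chr2:155807427-155807459, plus strand): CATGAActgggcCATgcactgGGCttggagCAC
Mmp2 (chr8:92839279-92839311, plus strand): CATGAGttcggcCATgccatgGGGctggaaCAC
Adam10 (chr9:70754296-70761585, plus strand): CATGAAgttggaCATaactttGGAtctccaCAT
Adam17 (chr12:21336732-21336764, minus strand): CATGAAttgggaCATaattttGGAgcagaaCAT
Adam9 (chr8:24990326-24990358, minus strand): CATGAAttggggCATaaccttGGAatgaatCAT
Adamts1 (chr16:85799191-85799545, minus strand): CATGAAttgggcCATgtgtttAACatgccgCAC
Adamts14 (chr10:61225465-61227123, minus strand): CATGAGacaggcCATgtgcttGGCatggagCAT
Adamts7 (chr9:90179456-90180640, plus strand): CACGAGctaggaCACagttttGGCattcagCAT
In Adam10, Adamts1, Adamts14 and Adamts7, as in 9 of the 21 tested proteases, an intron lies within the site, and the bases shown are joined across it. Asparagine took the place of glycine in 3 tested proteases, Adamts1, Adamts4 and Adamts9, each of which is known to cut the proteoglycans versican or aggrecan. Of the 21 tested proteases with the site, 4 were upregulated and 9 downregulated by risperidone, and of the 5 members without it, 2 were upregulated and 2 downregulated, beside 32.1% and 32.2% of all genes tested. The counts are too small to set the sets against each other. All 4 libraries contributed to these calls, which come from edgeR's quasi-likelihood test on the counts with Benjamini-Hochberg adjustment over 10243 genes.

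Compared with control, risperidone upregulated 6 of the 26 tested genes (Adamtsl5, Adamts14, Adamts1, Mmp2, Timp2 and Adam9, the last 2 of which had negative values on TPM, which scales each library to one fixed sum of levels) and downregulated 11 (Adamts7, Adamtsl4, Mmp24, Adam10, Mmp23, Timp1, Adam12, Adam17, Mmp19, Mmp14 and Adamts9, the last of which had a positive value after quantile normalization). The other 9 did not pass the adjusted threshold of 0.05. The same test called 32.1% of all 10243 genes higher and 32.2% lower, beside 23.1% and 42.3% of the tested members. Adamts7 and Adamtsl4 had means of 0.59 and 0.61 FPKM with risperidone and passed the filter of 1 FPKM through their control levels only, and without them 9 of 24 members were lower, so these shares support nothing about the members as a set. The median log2 fold change of the members was -0.07, and that of all genes tested was 0.0004. FPKM values of the treatments did not overlap for 22 of the 26 members, the 17 called members among them, against 82.2% of all genes tested.

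A log2 fold change of -1 or less with an adjusted p under the threshold was reached by 3 members, Adamts7, Adamtsl4 and Mmp24, against 3.91% of all genes. Of these, only Mmp24 reached a mean of 1 FPKM in both treatments. No member reached 1 in the other direction, where the largest value was the 0.76 of Adamtsl5 and where 2.61% of all genes passed. The number of members called lower was 7 without control replicate 1, the numbers called higher and lower were 3 and 15 on TPM, and the number called higher was 10 with an offset for gene length. On TPM the values of Timp1, Adam12, Adam17 and Mmp19 (-0.60, -0.54, -0.58 and -0.43) were over 1.5 times those given below, and those of Adamts1 and Adamts14 were 0.31 and 0.31. With limma on log2(FPKM + 1), where the pseudocount shrinks low levels, Adamts7 and Adamtsl4 stood at -0.71 and -0.75. Rescaling to TPM moved the median of all genes to -0.22 and scaling by library size alone moved it to -0.09, so small changes are best read against these shifts. Without risperidone replicate 2, the library with kidney transcripts, the 17 calls kept their direction and their side of the threshold.

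**Figure D1:**
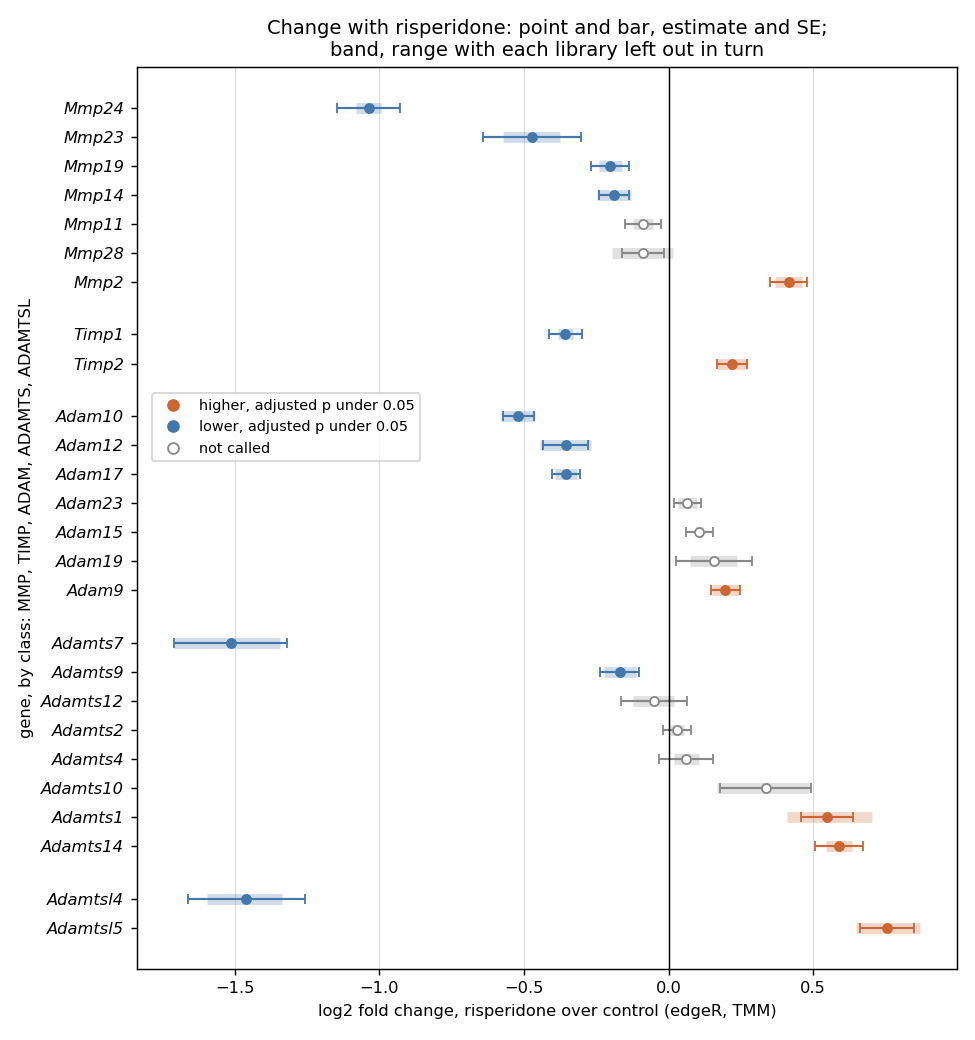
Log2 fold change of each of the 26 tested genes, risperidone over control, by class on the vertical axis; points and bars are the edgeR estimate and its standard error, pale bands the range with each library left out in turn, and filled points genes called at an adjusted p under 0.05. Adamts7, Adamtsl4 and Mmp24 lie at or beyond -1, while the largest value on the right is the 0.76 of Adamtsl5; Adam9 and Timp2 take negative values on TPM (-0.04 and -0.02) and Adamts9 a positive one after quantile normalization (0.05).

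Among the MMPs, most of the summed level came from a single gene. Mmp14, which encodes the membrane-type collagenase that activates pro-MMP2 on the cell surface, made up 66.0% of the summed FPKM of the 18 MMP genes. This sum was 259 and 258 FPKM in control and 223 and 219 FPKM with risperidone. Mmp14 (chr14:54431598-54442456) stood at 175 and 172 FPKM in control and at 148 and 138 FPKM with risperidone. Both risperidone libraries were below both control libraries. The decrease had a log2 fold change of -0.19 (SE 0.0527, edgeR adjusted p = 0.00891), and without control replicate 1 it did not pass the threshold (-0.17, edgeR adjusted p = 0.0703). Its size depended on the scaling, at -0.43 on TPM, -0.34 after quantile normalization and -0.12 with the length offset.

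Mmp2 encodes gelatinase A, a secreted enzyme that cuts denatured collagen and collagen IV of basement membranes, and it was the single upregulated MMP. It measured 20.2 and 20.9 FPKM in control and 24.7 and 26.6 FPKM with risperidone, with no overlap. The log2 fold change was 0.42 (SE 0.0635, edgeR adjusted p = 0.000176), and 0.17 on TPM, where it missed the threshold (limma adjusted p = 0.0543).

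Mmp24 encodes another membrane-type MMP, known mainly from neurons, and had the largest decrease among the tested MMPs by edgeR. It measured 5.24 and 4.95 FPKM in control against 2.34 and 2.31 FPKM with risperidone. The replicates lay close together, far from the gap between treatments, and the log2 fold change was -1.04 (SE 0.108, edgeR adjusted p = 1.12e-05). Exons of Mmp24 share 637 bases with BC029722 on the opposite strand, and whether the counting used strand is not given in the sources used here.

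Mmp23, an unusual small MMP with a transmembrane pro-domain, went from 5.11 and 5.29 FPKM to 3.35 and 3.97 FPKM. Its log2 fold change of -0.47 (SE 0.169, edgeR adjusted p = 0.0298) was called with all libraries, and the call was lost with DESeq2 (adjusted p = 0.135) and without control replicate 1 (edgeR adjusted p = 0.108), control replicate 2 (0.142) or risperidone replicate 1 (0.0964). After quantile normalization its value was -0.25 (limma adjusted p = 0.0426). Mmp19, a secreted MMP of stromal cells, went from 18.1 and 17.2 FPKM to 14.00 and 14.70 FPKM. Its log2 fold change was -0.20 (SE 0.0654, edgeR adjusted p = 0.0186), and it missed the threshold with DESeq2 (adjusted p = 0.0846) and without control replicate 1 (edgeR adjusted p = 0.0746). Its exons share 789 bases with Tmem198b and 212 with Gm47093 on the opposite strand.

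Mmp11 (stromelysin-3) and Mmp28 (epilysin) were not called, with log2 fold changes of -0.09 (edgeR adjusted p = 0.232) and -0.09 (0.308). Their FPKM values were nonetheless lower in both risperidone libraries, at 20.5 and 21.2 against 22.3 and 23.5 FPKM for Mmp11 and at 9.52 and 11.1 against 11.5 and 11.9 FPKM for Mmp28. Without risperidone replicate 2, Mmp28 passed the threshold (-0.20, edgeR adjusted p = 0.0371). Opposite-strand exons share 155 bases of Mmp11 (Chchd10) and 466 of Mmp28 (1700020L24Rik). The classical secreted collagenases and stromelysins were nearly silent. The 7 listed MMP genes on chromosome 9, from Mmp13 to Mmp27 (chr9:7272514-7581885), had mean levels of 0.51 FPKM or less. Mmp9, the other gelatinase, had a mean of 0.06 FPKM.

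**Figure D2:**
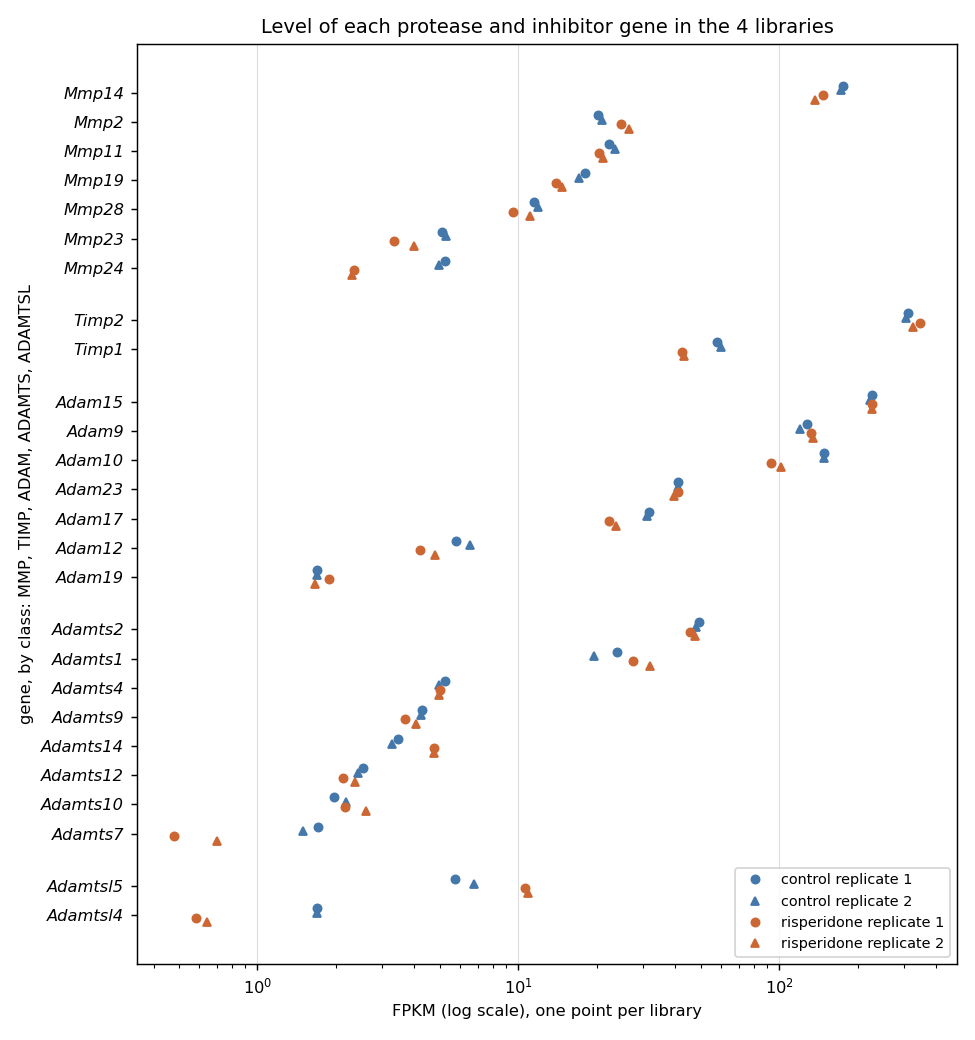
FPKM in each library (log scale, 1 point per library) of the 26 tested genes, by class and in order of mean level within a class. Timp2, at 307 to 347 FPKM, is the highest and Adamts7, at 0.48 to 1.71 FPKM, the lowest, and the orange risperidone points of Mmp24, Adam10, Adam17, Timp1, Adamts7 and Adamtsl4 lie clearly left of the blue control points.

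The inhibitor genes moved in opposite directions. Timp2, whose product blocks MMPs and also bridges pro-MMP2 to MMP14 for activation, was the highest of all 58 genes in FPKM and made up 86.2% of the summed TIMP level. It measured 311 and 307 FPKM in control and 347 and 326 FPKM with risperidone. Its log2 fold change was 0.22 (SE 0.0518, edgeR adjusted p = 0.00319), but 0.12 by limma on log2(FPKM + 1) and on log2(FPKM + 0.1), where it missed the threshold (adjusted p = 0.0639 and 0.0642). It was 0.06 after quantile normalization (limma adjusted p = 0.193) and -0.02 on TPM. The increase was no larger than the shift of -0.22 that TPM gave the median of all genes.

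Timp1, an inhibitor of most secreted MMPs with weak action on membrane-type enzymes, fell. It measured 57.7 and 60.1 FPKM in control and 42.5 and 43.3 FPKM with risperidone. The log2 fold change was -0.36 (SE 0.0574, edgeR adjusted p = 0.000256), and the call held under every alternative that set no minimum size of change.

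Ratios of FPKM within a library do not depend on the scaling of libraries, and several of those of MMP and TIMP genes differed between treatments. Mmp14 stood to Timp2 as 0.564 and 0.561 in control and as 0.425 and 0.422 with risperidone. Timp2 exceeded Timp1 5.38-fold and 5.10-fold in control and 8.17-fold and 7.54-fold with risperidone. Mmp2 stood to Mmp14 as 0.115 and 0.121 in control and as 0.167 and 0.193 with risperidone. In each of these pairs the 2 control ratios were closer to each other than to either risperidone ratio. Mmp2 stood to Timp2 as 0.0651 and 0.0681 in control and as 0.0712 and 0.0815 with risperidone, where the lower risperidone ratio lay as near to a control ratio as the controls to each other. With 2 libraries per treatment an exact two-sided permutation test cannot go below p = 0.333, so these ratios are given without one.

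**Figure D3:**
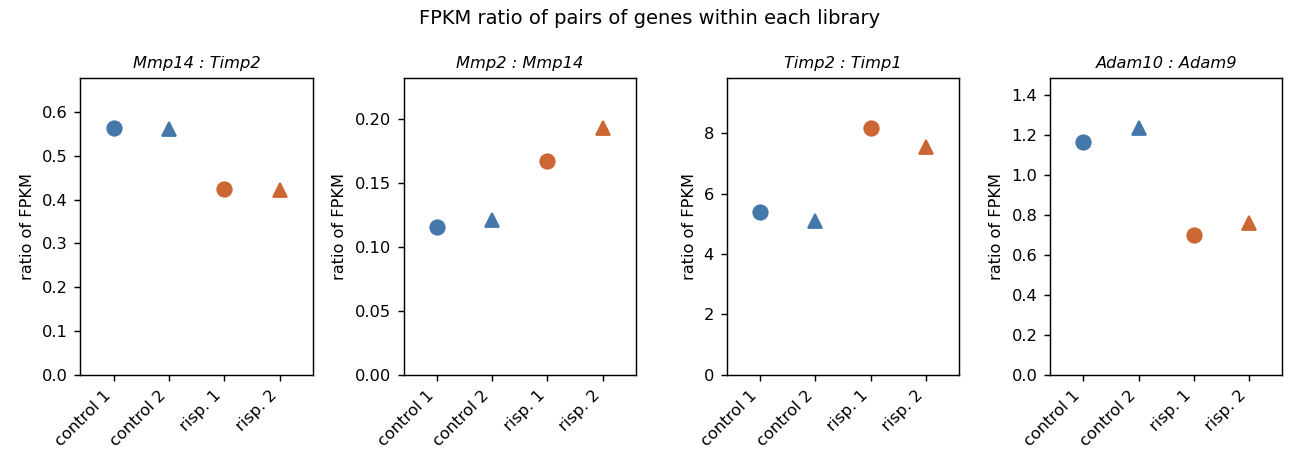
FPKM ratio of 4 pairs of genes in each library (blue control, orange risperidone; circles replicate 1, triangles replicate 2), with each vertical axis starting at 0. Mmp14 to Timp2 and Adam10 to Adam9 are lower, and Mmp2 to Mmp14 and Timp2 to Timp1 higher, in both risperidone libraries than in both control libraries.

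Among the ADAMs, the main sheddases fell while the most abundant member did not pass the test. Adam10 encodes the protease that sheds Notch receptors, cadherins and many other surface proteins. It measured 149 FPKM in both control libraries and 92.9 and 102 FPKM with risperidone. The gap between treatments far exceeded that between replicates, and its log2 fold change was -0.52 (SE 0.053, edgeR adjusted p = 9.49e-06). In control Adam10 was above Adam9 in FPKM, with ratios of 1.16 and 1.24, and with risperidone it was below, with ratios of 0.702 and 0.758.

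Adam17 encodes TACE, the sheddase of tumor necrosis factor, its receptors and ligands of the epidermal growth factor receptor. It measured 31.6 and 31.1 FPKM in control and 22.3 and 23.7 FPKM with risperidone. Both risperidone libraries lay below both controls, with a log2 fold change of -0.35 (SE 0.0494, edgeR adjusted p = 9.15e-05). Exons of Adam17 share 311 bases with Iah1 on the opposite strand. The calls of Adam10 and Adam17 held under every alternative that set no minimum size of change.

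Adam12 (meltrin alpha), a protease of muscle and mesenchymal cells, went from 5.79 and 6.54 FPKM to 4.21 and 4.81 FPKM. The log2 fold change was -0.36 (SE 0.0771, edgeR adjusted p = 0.00195), and it missed the threshold after quantile normalization (limma adjusted p = 0.0751). Adam9, another widely expressed membrane ADAM, measured 128 and 121 FPKM in control and 132 and 134 FPKM with risperidone. Its log2 fold change of 0.20 (SE 0.0502, edgeR adjusted p = 0.00529) was 0.10 and not called when scaled by library size alone, was not called by limma on FPKM with either pseudocount (adjusted p = 0.1 and 0.103) or after quantile normalization (0.06, limma adjusted p = 0.33), was not called without control replicate 2 (0.15, edgeR adjusted p = 0.102) and became -0.04 on TPM.

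Adam15 made up 40.9% of the summed FPKM of the 16 ADAM genes, and Adam15, Adam9 and Adam10 together 86.3%. Adam15 measured 227 and 224 FPKM in control and 227 and 227 FPKM with risperidone, values that overlapped between treatments, and its log2 fold change of 0.11 was not called (SE 0.0466, edgeR adjusted p = 0.0654). It passed the threshold as lower on TPM (-0.13, limma adjusted p = 0.0316) and as higher with the length offset (0.11, edgeR adjusted p = 0.0265) and without risperidone replicate 2 (0.11, edgeR adjusted p = 0.0337), so its direction depended on the scaling. Its exons share 1263 bases with the antisense gene 4731419I09Rik. Adam23, which lacks the zinc-binding site and acts in cell adhesion, ranged from 39.4 to 41.1 FPKM (log2 fold change 0.06, edgeR adjusted p = 0.242), and passed as lower on TPM (-0.17, limma adjusted p = 0.0171) and as higher with the length offset (0.17, edgeR adjusted p = 0.00743). Adam19 (meltrin beta) ranged from 1.67 to 1.88 FPKM (0.16, edgeR adjusted p = 0.317), and its exons share 587 bases with Gm16033 and 480 with Gm16034 on the opposite strand. The summed ADAM level was 585 and 575 FPKM in control and 522 and 534 FPKM with risperidone.

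Among the ADAMTS genes, Adamts1 and Adamts14 rose, Adamts7 and Adamts9 fell, and Adamts2, Adamts4, Adamts10 and Adamts12 were not called. Adamts1 encodes a protease that cuts versican and aggrecan. It measured 23.9 and 19.6 FPKM in control and 27.6 and 32.1 FPKM with risperidone. The replicates of each treatment were spread, but the groups did not overlap, and the log2 fold change was 0.55 (SE 0.0893, edgeR adjusted p = 0.000278).

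Adamts14 and Adamts2 encode procollagen N-propeptidases, which trim the amino end of fibrillar procollagens. Adamts14 measured 3.47 and 3.28 FPKM in control and 4.75 FPKM in both risperidone libraries, a log2 fold change of 0.59 (SE 0.0828, edgeR adjusted p = 9.63e-05). Adamts2, the highest ADAMTS gene with 45.6% of the summed ADAMTS and ADAMTSL level, measured 49.2 and 48.1 FPKM in control and 45.4 and 47.5 FPKM with risperidone. Its log2 fold change was 0.03 (SE 0.0471, edgeR adjusted p = 0.608), with negative values under 5 of the alternatives, and it passed as lower on TPM (-0.21, limma adjusted p = 0.012) and as higher with the length offset (0.15, edgeR adjusted p = 0.00485). The ratio of Adamts2 to Adamts14 was 14.2 and 14.7 in control and 9.56 and 10.01 with risperidone.

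Adamts7, which encodes a protease known to cut the cartilage matrix protein COMP, had the lowest log2 fold change of all tested members by edgeR with all libraries, with Adamtsl4 or Mmp24 lower in some alternatives. It measured 1.71 and 1.49 FPKM in control and 0.48 and 0.70 FPKM with risperidone, or 146 and 126 against 39 and 50 counts. These low counts set the size of its error, with a log2 fold change of -1.51 (SE 0.195, edgeR adjusted p = 5.08e-05), and the call held under every alternative in which it was tested, a minimum log2 change of 1 included (at a mean of at least 5 FPKM it was not tested). Its exons share 122 bases with Tbc1d2b on the opposite strand. Adamts12, its closest relative, was not called, at 2.54 and 2.43 against 2.13 and 2.37 FPKM (-0.05, SE 0.115, edgeR adjusted p = 0.711).

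Adamts9, another versican protease, went from 4.28 and 4.24 FPKM to 3.67 and 4.07 FPKM. The log2 fold change of -0.17 (SE 0.0683, edgeR adjusted p = 0.0489) was at the edge of the threshold. It missed it with a term for the replicate number (edgeR adjusted p = 0.0635), with RLE size factors (0.0508), with DESeq2 (adjusted p = 0.276), without the filter (edgeR adjusted p = 0.111), with the length offset (-0.05, edgeR adjusted p = 0.525), by limma on FPKM with either pseudocount (adjusted p = 0.295 and 0.295) and on TPM (limma adjusted p = 0.0743). It also missed it without control replicate 1 (-0.11, edgeR adjusted p = 0.348) and without risperidone replicate 1 (-0.12, 0.258), and had the other sign after quantile normalization (0.05). Its exons share 1381 bases with A730049H05Rik and 424 with Gm15737 on the opposite strand. Adamts4, an aggrecanase, ranged from 4.96 to 5.25 FPKM (log2 fold change 0.06, edgeR adjusted p = 0.578), and Adamts10, linked to fibrillin microfibrils, from 1.97 to 2.60 FPKM (0.34, edgeR adjusted p = 0.0811). Adamts10 passed the threshold without risperidone replicate 1 (0.49, edgeR adjusted p = 0.0139), with the length offset (0.41, edgeR adjusted p = 0.034) and after quantile normalization (0.30, limma adjusted p = 0.0403), and stood at 0.17 without risperidone replicate 2.

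The ADAMTS-like genes, whose products resemble ADAMTS proteases without the catalytic part and bind matrix proteins, were called in opposite directions. Adamtsl4, which encodes a fibrillin-binding protein, measured 1.70 FPKM in both control libraries and 0.58 and 0.64 FPKM with risperidone. This was a log2 fold change of -1.46 (SE 0.202, edgeR adjusted p = 8.76e-05). Adamtsl5 measured 5.74 and 6.79 FPKM in control and 10.6 and 10.9 FPKM with risperidone, a log2 fold change of 0.76 (SE 0.0933, edgeR adjusted p = 3.74e-05). The call of Adamtsl5 held under every alternative that set no minimum size of change, and that of Adamtsl4 under every alternative in which it was tested, which excludes a mean of at least 5 FPKM.

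The 32 genes under a mean of 1 FPKM began with Adamts6, at 0.927 FPKM, while Adamts7, at 1.09 FPKM, was the lowest tested gene. Of the 32, 23 had under 20 counts in every library and 12 had 3 counts or fewer in every library, so little could be resolved in them at this depth. Among the 23, the counting intervals of the ratio of control to risperidone lay above 1 for Adam22 (1.48 to 18.3), Timp4 (1.02 to 7.28) and Mmp27 (1.004 to 13.7), and none of these was called. When all genes with a count were tested, edgeR called 0 of the 32 higher and 1 lower, with 6 at an unadjusted p under 0.05, while that test called 18.4% of all genes higher and 19.3% lower.

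The call was Adamtsl2, which encodes a matrix protein that binds fibrillin. It had 13 and 26 counts in control and 1 count in each risperidone library. The summed CPM stood 19.5-fold higher in control, with a 95% counting interval of 5.05 to 167, and the edgeR adjusted p without the filter was 0.00917.

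Timp3 encodes the inhibitor that binds to the matrix and also blocks ADAM17 and ADAMTS proteases. It had 2 and 0 counts in control, 3 counts in risperidone replicate 1 and 172 counts in risperidone replicate 2. Its level thus rested on a single library, the one in which kidney markers summed to 226 FPKM, and it was not called (edgeR adjusted p without the filter = 0.0755). Whether its counts there belong to the treated cells was not tested. Its exons share 1733 bases with Syn3 on the opposite strand.

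Of the other low genes with 20 counts or more in a library, Adamts15, a versican protease, had 26 and 25 counts in control and 37 and 51 with risperidone (edgeR adjusted p without the filter = 0.053). Mmp8, the neutrophil collagenase, had 21 and 33 counts in control and 12 and 10 with risperidone (0.071). Adamts13, whose product cuts von Willebrand factor, had 32.8 and 22.2 estimated counts in control and 8 and 12.99 with risperidone (0.0672). None of these passed the adjusted threshold. Adamts5 (75 and 57 counts in control, 51 and 49 with risperidone) and Mmp15 (12 and 11, against 21 and 17) were not called either, nor were Adamts6 (61 to 112 counts) and Adam8 (12 to 26). The counts of the treatments did not overlap for Adamts15, Mmp8, Adamts13, Adamts5 and Mmp15, which is read against the 82.2% of tested genes whose levels did not overlap.

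**Figure D4:**
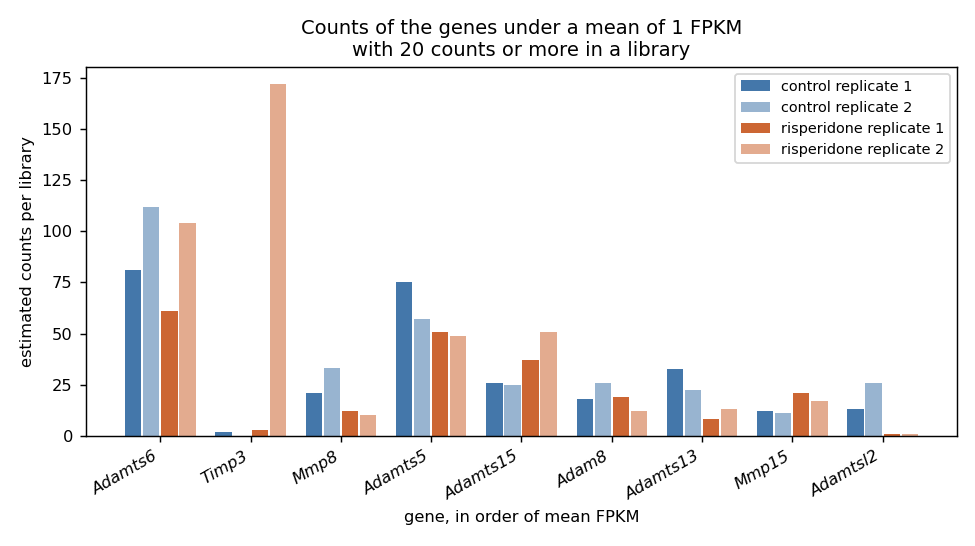
Estimated counts per library of the 9 genes under a mean of 1 FPKM that had 20 counts or more in a library, in order of mean FPKM. Timp3 stands at 172 counts in risperidone replicate 2 and at 3 or fewer elsewhere, while Adamtsl2 has 13 and 26 counts in the control libraries and 1 in each risperidone library.

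The 250 bases upstream of the transcription start (RefSeq, GRCm38.p6) were searched on both strands in the 19 tested members that had such a sequence. Some genes had several starts, and a motif counted if the window of any start held it. The GC box, GGGCGG, was present in 15 of the 19, against 35.4% of all 27025 genes searched and 66.3% of those with a mean of at least 1 FPKM. CCAAT was found in 5 (37.5% and 41.5%), and the other motifs in 1 gene at most. TATAAA was found in Adamts1 (14.3% and 7.53%), the AP-1 motif TGANTCA in Adam19 (7.82% and 5.05%), the STAT motif TTCNNNGAA in Mmp23 (8.13% and 6.88%) and the cAMP response element TGACGTCA in none (1.77% and 3.17%). The matches in Adam19 and Mmp23 were not in every window of the gene. GC boxes may overlap one another. The windows of Mmp24 and Adamts14 are shown 5′ to 3′ on the strand of the gene, with GC boxes of either strand in capitals. By edgeR with all libraries, Mmp24 had the largest decrease among the tested MMPs. Adamts14 had the largest increase among the tested proteases in that fit, while Adamts1 exceeded it in some alternatives. Whether any motif goes with the direction of change was not tested.
Mmp24 (chr2:155775092-155775341, plus strand): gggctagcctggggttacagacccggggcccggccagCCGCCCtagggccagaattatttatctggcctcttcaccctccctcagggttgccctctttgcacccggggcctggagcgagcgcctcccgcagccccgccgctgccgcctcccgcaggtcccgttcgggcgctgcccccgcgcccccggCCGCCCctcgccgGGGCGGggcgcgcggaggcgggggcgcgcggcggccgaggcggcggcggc
Adamts14 (chr10:61273420-61273669, minus strand): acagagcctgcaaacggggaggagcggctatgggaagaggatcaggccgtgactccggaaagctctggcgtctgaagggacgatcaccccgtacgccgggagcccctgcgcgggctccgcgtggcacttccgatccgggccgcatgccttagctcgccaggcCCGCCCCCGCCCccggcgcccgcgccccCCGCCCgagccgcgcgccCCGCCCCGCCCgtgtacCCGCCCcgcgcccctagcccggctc
Mmp24 held 3 GC boxes and Adamts14 held 6. A match is a string of letters only and was not tested for binding.

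Genes that activate, inhibit, assist or are cut by these proteases were then read from the same test. Of 79 such genes, 75 were listed and 48 were tested. Of the 48, 14 were higher, 22 lower and 12 not called, against 32.1% higher and 32.2% lower among all genes. Their median log2 fold change was -0.09. The same shares stand beside the counts of each list below, which are too small to say anything of a list as a set. Among activators of the pro-enzymes, 3 of 4 tested were lower and 1 higher. The lower call of Plat was at the edge of the threshold (-0.15, edgeR adjusted p = 0.0499). It was lost without the filter, with RLE size factors and with DESeq2, and the value was -0.10 without risperidone replicate 2 and -0.39 on TPM. Furin, the main convertase that removes the pro-domain of membrane-type MMPs and ADAMs, went from 63.5 and 66.1 FPKM to 45.3 and 46.0 FPKM, a log2 fold change of -0.41 (SE 0.046, edgeR adjusted p = 2.02e-05) and -0.64 on TPM. Pcsk7, a related convertase, had -0.50 (SE 0.0638). Plaur, the receptor of the plasminogen activator urokinase, rose from 0.53 and 0.69 FPKM to 1.79 and 1.86 FPKM, a log2 fold change of 1.69 (SE 0.3, edgeR adjusted p = 0.000526) and 0.96 on TPM. It passed the filter of 1 FPKM only through its level with risperidone, as did Spock2 below.

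Of the 6 tested genes for other inhibitors and clearance, 4 were higher (Serpine2, Spock2, Thbs1 and Thbs2, the last with -0.06 on TPM) and 2 were not called. Of all genes tested, 32.1% were higher and 32.2% lower. Thbs1, the gene of the matrix protein thrombospondin-1, went from 43.4 and 38.3 FPKM to 59.1 and 71.1 FPKM, a log2 fold change of 0.77 (SE 0.0822, edgeR adjusted p = 1.34e-05). Serpine2, the gene of an inhibitor of serine proteases, had 0.88 (SE 0.247; 0.51 on TPM) and missed the threshold without control replicate 1 (0.60, edgeR adjusted p = 0.112). Spock2, the gene of a matrix proteoglycan, had 0.84 (SE 0.176) and missed the threshold on TPM (0.40, limma adjusted p = 0.0659).

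Among partners of ADAM10 and ADAM17, 2 of 6 were lower, 1 was higher and 3 were not called, beside 32.2% lower and 32.1% higher among all genes. Frmd8, whose product keeps the ADAM17 complex at the cell surface, fell furthest, from 12.9 and 14.3 FPKM to 3.09 and 3.32 FPKM, a log2 fold change of -1.99 (SE 0.0863, edgeR adjusted p = 3.14e-08). Tspan14, a tetraspanin that escorts ADAM10, had -0.24 (SE 0.0727, edgeR adjusted p = 0.0136) and missed the threshold without control replicate 1, control replicate 2 or risperidone replicate 2 (edgeR adjusted p = 0.117, 0.102 and 0.0699), with DESeq2 (adjusted p = 0.145) and after quantile normalization (limma adjusted p = 0.0906), while its value was -0.45 on TPM. Rhbdf2, the gene of iRhom2, which escorts ADAM17, had 0.26 (SE 0.102, edgeR adjusted p = 0.0427) and missed it without control replicate 1, control replicate 2 or risperidone replicate 1 (edgeR adjusted p = 0.0705, 0.338 and 0.174), and its value was 0.02 on TPM. Its call was also lost with DESeq2 (adjusted p = 0.166), without a filter, with a filter of 5 FPKM, with library size alone and by limma on FPKM, and its value was 0.02 on TPM (limma adjusted p = 0.875).

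Of 6 other matrix proteases and inducers, 2 were higher and 4 lower, beside 32.1% higher and 32.2% lower among all genes. Ctsk, the gene of the collagen-cutting cathepsin K, went from 19.96 and 18.54 FPKM to 11.99 and 10.96 FPKM (log2 fold change -0.65, SE 0.0849, edgeR adjusted p = 5.71e-05). Ddr2, a collagen receptor, had -0.47 (SE 0.0524). Bsg, the gene of basigin, known as an inducer of MMPs, had 0.35 (SE 0.0468) from 1642 and 1616 to 1940 and 1942 FPKM, but passed as lower after quantile normalization (-0.28, limma adjusted p = 0.00585) and was not called on TPM (0.11, limma adjusted p = 0.0801).

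Of 11 matrix substrates, 2 were higher, 5 lower and 4 not called, beside 32.1% higher and 32.2% lower among all genes. The fibrillar collagens moved apart. Col1a1 rose from 380 and 368 FPKM to 715 and 674 FPKM (log2 fold change 0.99, SE 0.0523, edgeR adjusted p = 1.06e-07). Col3a1 fell from 105 and 109 FPKM to 49.3 and 53.8 FPKM (-0.96, SE 0.0532, edgeR adjusted p = 1.34e-07). Vcan, the gene of versican, fell from 62.3 and 64.7 FPKM to 33.2 and 37.6 FPKM (-0.96, SE 0.0751, edgeR adjusted p = 1.33e-06). Col1a1 is also among the preadipocyte and fibroblast markers whose sum was higher with risperidone.

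Of 15 shed membrane proteins, 4 were higher, 8 lower and 3 not called, beside 32.1% higher and 32.2% lower among all genes. Dlk1, the gene of preadipocyte factor 1, which ADAM17 is known to release, rose from 30.4 and 32.9 FPKM to 81.7 and 83.3 FPKM (log2 fold change 1.52, SE 0.0544, edgeR adjusted p = 1.11e-08). Hbegf, a growth factor made as a membrane precursor, had 0.86 (SE 0.123). Cdh2, the gene of N-cadherin and a known ADAM10 substrate, fell from 52.1 and 49.2 FPKM to 25.6 and 27.8 FPKM (-0.83, SE 0.0536, edgeR adjusted p = 3.5e-07). These values are transcript levels, and neither protease activity nor shed protein was measured in these libraries.

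**Figure D5:**
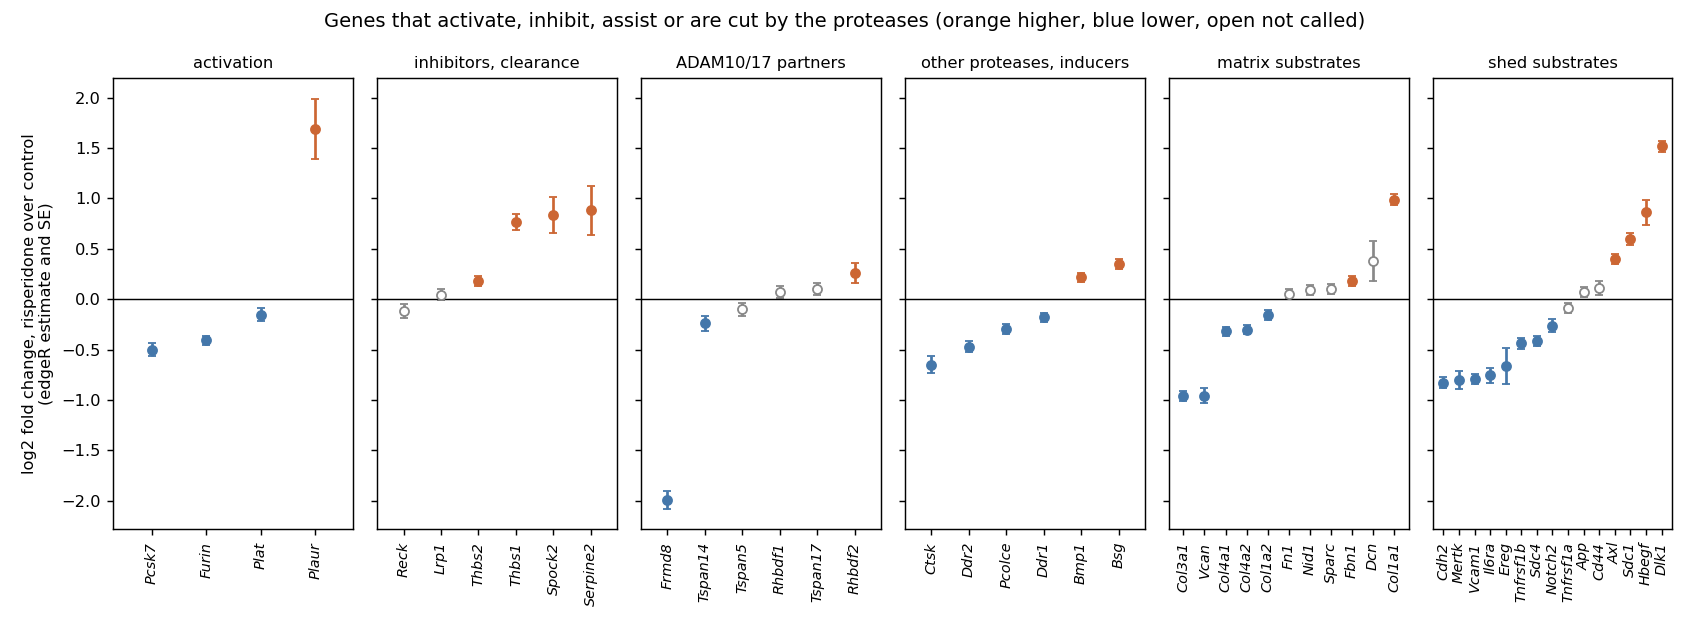
Log2 fold change with its standard error (edgeR, risperidone over control) of the 48 tested genes around the proteases, in 6 lists; orange points are called higher, blue lower and open points not called. Plaur at 1.69 (0.96 on TPM) and Frmd8 at -1.99 are the extremes; Bsg, Bmp1, Thbs2 and Fbn1, orange here, take negative values under a scaling tried (-0.28, -0.03, -0.06 and -0.05).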

How the data were processed

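The authors deposited 1 gene table of mRNA-seq with an estimated count, FPKM and TPM per library. The authors deposited FPKM and TPM already computed and expected counts that carry no further normalization. The submitters' processing notes name Bowtie2, RSEM, DESeq2 and GRCm38.p6; their roles, versions, the annotation and the strandedness are not given in the sources used here. Columns holding the authors' group means were not used, and the 3 symbols that recur were separated by NCBI Gene identifier. Counts, whole for 91.2% to 91.7% of values, were rounded. Genes averaging 1 FPKM or more over the libraries were compared, two-sided, with edgeR 4.0.16 (R 4.3.3; TMM, quasi-likelihood test, no covariate, Benjamini-Hochberg over 10243 genes, threshold 0.05). The standard error is the absolute log2 fold change over the square root of F. Replicates differed beyond counting error in 12.4% (control) and 23.6% (risperidone) of genes, where 5% is nominal.

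Alternatives were no filter, a mean of at least 5 FPKM, a replicate term, RLE size factors, library size only, DESeq2 1.42.0, limma 3.58.1 on log2(FPKM + 1), log2(FPKM + 0.1), log2(TPM + 1) and quantile-normalized values, a gene length offset, a minimum log2 change of 1 in either direction, and each library left out. The tools were tested on simulated data. Every member with a mean of at least 1 FPKM is named, and lower ones from 20 counts in a library. Of each surrounding list, up to 3 called genes with the largest change are named. Mmp9, Mmp13, Mmp27, Timp4, Adam22, Adamts8, Plat, Thbs2, Bmp1 and Fbn1 were added once their values were known. One gene of the surrounding lists is not reported here. The members, lists and rules were chosen with earlier results of these data known. Loci and promoters are from RefSeq and coding sequences from GENCODE M21, with all 58 members matched in both gene tables and 38 in the promoter table. Tables were read with Python 3.11.15 and pandas 2.3.3, and figures drawn with matplotlib 3.10.9.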

Additional observations from a re-analysis of the deposited data

How the results depend on the processing

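Of the 17 called members, 9 kept direction and call under every alternative in which they were tested and that set no minimum size of change (Adam10, Adam17, Adamts1, Adamts14, Adamts7, Adamtsl4, Adamtsl5, Mmp24 and Timp1), with Adamts14, Adamts7, Adamtsl4 and Mmp24 not tested at a mean of at least 5 FPKM; the other 8 are given with their exceptions in the text, and Mmp11, Mmp28, Adamts2, Adam23, Adam15 and Adamts10 passed the threshold only under some alternatives. Members lower numbered 11, but 6 at a mean of at least 5 FPKM, where fewer genes were tested, 3 with a minimum log2 change of 1, and 7 to 12 with a library left out. Members higher numbered 6, but 3 on TPM (where 15 were lower), 10 with the gene length offset and 0 with a minimum log2 change of 1. Over all genes, 3287 higher and 3303 lower calls became 1536 and 5292 on TPM, 2500 and 4092 by library size, 2420 and 3975 by limma on log2(FPKM + 1), and 267 and 401 with a minimum log2 change of 1. Surrounding genes higher numbered 14, but 8 on TPM and 2 with a minimum log2 change of 1, where 1 of 22 stayed lower. Replicate numbers did not pair the libraries (correlation of replicate differences across genes -0.06); with a replicate block, 6 members were higher and 10 lower, Adamts9 being lost. Signs turned on TPM for Adamts2 (-0.21), Adamts4 (-0.16), Adam23 (-0.17), Adam15 (-0.13), Adam19 (-0.065), Adam9 (-0.041) and Timp2 (-0.019), by library size for Adamts2 (-0.064), Adamts4 (-0.032) and Adam23 (-0.029), by limma on log2(FPKM + 1) for the same genes (-0.064, -0.027 and -0.029) and on log2(FPKM + 0.1) (-0.065, -0.032 and -0.030), after quantile normalization for Adamts2 (-0.041), Adam23 (-0.0079), Adam15 (-0.0081), Adamts12 (0.073) and Adamts9 (0.053), and with the length offset for Adamts12 (0.050). With a library left out, Mmp28 ranged from -0.196 to 0.014 and Adamts12 from -0.123 to 0.018. The cause of these shifts was not tested. With 2 pooled libraries per treatment, a library left alone in its group was assumed to vary like the other group's.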
